A study of Mus musculus with 8 samples.

Results

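The 10 genes described here are induced when oxygen is low and act outside glycolysis: Vegfa, Adm, Egln1, Egln3, Bnip3, Higd1a, P4ha1, Ddit4, Ndrg1 and Car9. They were chosen by symbol from a table of 21812 gene symbols, and all 10 were found and passed the filter on low counts. The cells were mouse embryonic stem cells in culture medium made to induce primitive endoderm (PrE), an early extraembryonic tissue. Their RNA was sequenced in 8 libraries, 2 for each genotype label: Mettl3 WT and cKO in one line, Virma WT and cKO in the other. Both genes belong to the m6A writer, which places N6-methyladenosine on RNA: Mettl3 is its enzyme and Virma part of its scaffold. All 4 groups shared the cell type and the medium. The sources used here do not give how the knockouts were made, whether each line is a single clone, the oxygen level, or whether libraries came from separate cultures. So a p-value here speaks only of spread among libraries, possibly technical spread.

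Cells sense oxygen through hypoxia-inducible factors (HIF), dimers of an unstable alpha subunit and a stable beta subunit. With oxygen present, prolyl hydroxylases of the Egln family modify the alpha subunit, the Vhl ubiquitin ligase binds it, and it is destroyed. When oxygen falls the alpha subunit persists, pairs with Arnt, and binds short DNA elements with the core ACGTG or GCGTG near its targets. Those targets include signals for new vessels (Vegfa, Adm), the hydroxylases themselves (Egln1, Egln3), mitochondrial proteins (Bnip3, Higd1a), a collagen-modifying enzyme (P4ha1) and stress-response genes (Ddit4, Ndrg1). Early embryos develop at low oxygen, and the endoderm that surrounds them lays down a collagen-rich basement membrane.

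The core ACGTG was looked for in the 250 bases before each annotated start, in RefSeq promoter sequences of the build GRCm38.p6, on both strands (CACGT is its reverse complement). It was present in 16.6% of 32851 such windows of all genes, and GCGTG (reverse complement CACGC) in 28.2%. Of the members, 9 had a promoter entry, with 10 windows, and 7 windows held ACGTG. Vegfa held it only in the window of a second start, and Adm and Higd1a held GCGTG only. The stretches below show the match, in capitals, for the 4 members whose match lay outside annotated exons. Of these, Bnip3 and P4ha1 fell in both knockout comparisons, Egln3 fell in the Mettl3 comparison, and Ddit4 rose in the Virma comparison. Among the other members with ACGTG, Vegfa rose slightly in both, Egln1 fell slightly in the Mettl3 comparison, and Car9 was called in neither. Without ACGTG, Higd1a fell in both and Adm rose in the Virma comparison. Ndrg1, which had no promoter entry, fell in both. The stretches are written 5′ to 3′ on the strand of the gene and end before its start. A match is a description of the letters, and no binding was measured.
Bnip3, chr7:138909550-138909674, minus strand: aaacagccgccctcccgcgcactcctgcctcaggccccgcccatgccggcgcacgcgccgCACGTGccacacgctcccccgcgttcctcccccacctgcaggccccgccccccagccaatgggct
P4ha1, chr10:59323220-59323295, plus strand: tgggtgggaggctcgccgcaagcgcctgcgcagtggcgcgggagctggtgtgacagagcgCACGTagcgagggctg
Egln3, chr12:54204039-54204124, minus strand: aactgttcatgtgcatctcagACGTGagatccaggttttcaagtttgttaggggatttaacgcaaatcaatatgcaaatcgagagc
Ddit4, chr10:59951893-59952017, minus strand: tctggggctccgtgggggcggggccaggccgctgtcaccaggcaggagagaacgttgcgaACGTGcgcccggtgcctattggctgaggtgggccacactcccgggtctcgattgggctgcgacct
In Bnip3 the match is the palindrome CACGTG, so the core reads on both strands. It lies 108 bases before the start in Bnip3, 16 in P4ha1, 229 in Egln3 and 187 in Ddit4.

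Total counts were 15568628 to 17306227 per library. Between the libraries of Virma cKO, counts differed by less than the sampling noise (chi-square per degree of freedom 0.914, against 1.31 to 2.84 in the other pairs), and they were counted as 1 sample in the tests. Among the 505 genes with at least 10000 counts in the pair the ratio was 3.47. Both of their values are printed without an SD. Mettl3 itself stood at 35.7 and 35.2 normalised CPM (a library's counts scaled to a common total) in Mettl3 WT, against 35.3 and 33.9 CPM in those labelled Mettl3 cKO (log2 fold change −0.04 ± 0.07 SE, edgeR adjusted p = 0.695). Virma fell in Virma cKO by 0.33 ± 0.06 on the log2 scale. Mettl3 fell there too, by 0.42 ± 0.09, from 45.8 and 44.2 to 34.1 and 33.5 CPM. In Mettl3 cKO, Virma stood at 0.08 ± 0.05 (edgeR, adjusted p = 0.148). A gene total cannot show a lost exon, so directions below are between libraries labelled cKO and WT. Summed levels of 14 primitive endoderm markers were 15548 to 15603 CPM in Mettl3 WT, 9946 to 10008 CPM in Mettl3 cKO, 12318 to 12398 CPM in Virma WT and 2367 to 2394 CPM in Virma cKO. Summed levels of 10 pluripotency markers were 2123 to 2144, 1970.3 to 2022, 2183 to 2208 and 1361 to 1378 CPM in the same order. Those of 12 fibroblast markers were 208 to 226, 385 to 386, 495 to 497 and 1119 to 1125 CPM. No gene of these 3 lists was at 0 in any group. The part of such differences in cell makeup in the results below was not tested, and in bulk RNA fewer cells of a type and less RNA per cell cannot be told apart.

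Per kilobase of annotated exon, P4ha1, Vegfa and Ddit4 were the most abundant members in both WT groups, and Car9 the least abundant in all 4. In Mettl3 WT the mean level was 46.1 CPM per kilobase for P4ha1, 32.4 for Vegfa, 30.0 for Ddit4 and 0.650 for Car9. In Virma cKO the order was different: Ddit4 led at 32.8 CPM per kilobase, Vegfa followed at 29.0, and P4ha1 stood at 14.7, below Egln1 at 17.4.

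**Figure D1:**
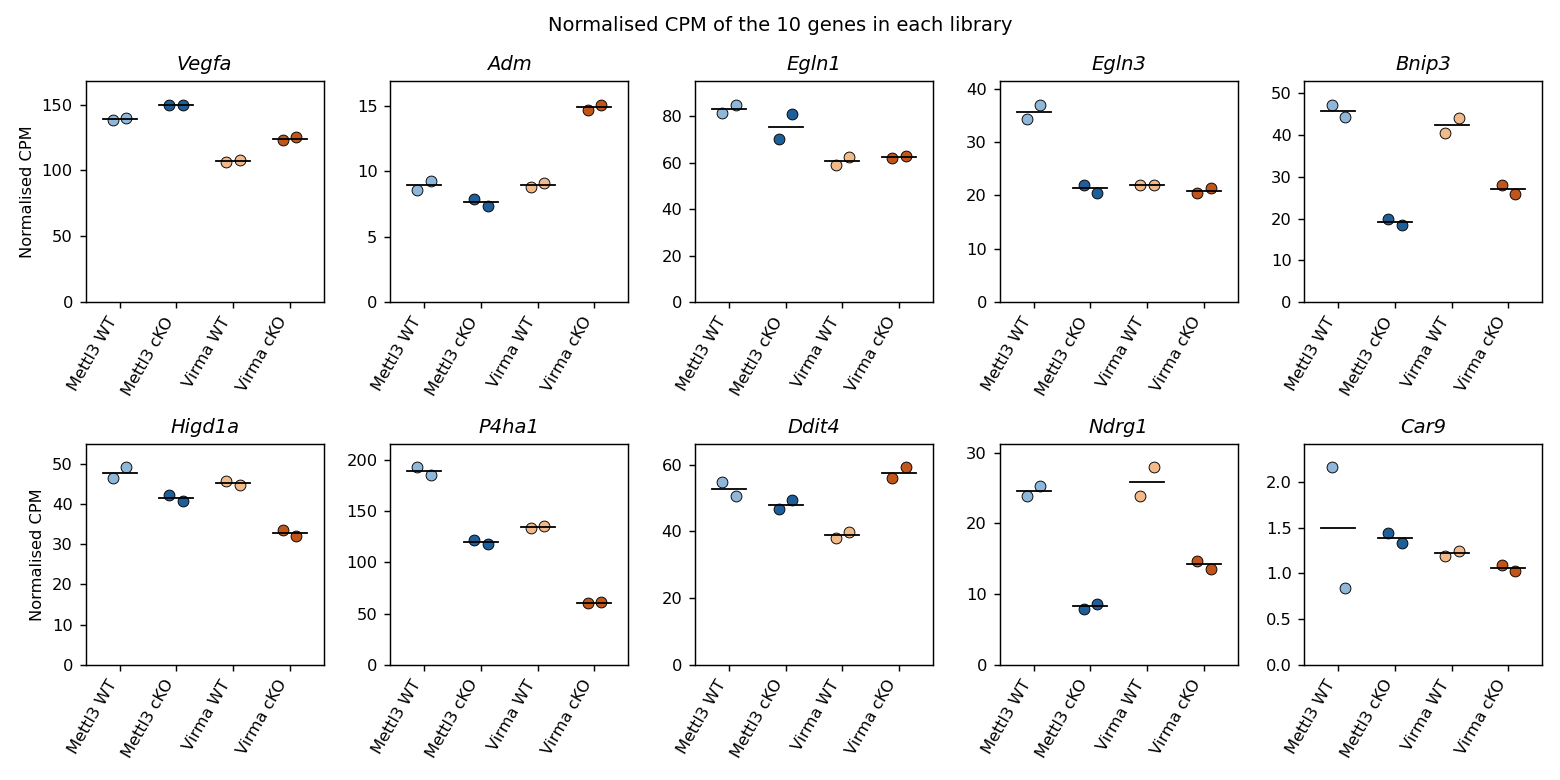
Normalised CPM (y axis, from 0, a separate scale for each gene) of the 10 genes in each of the 8 libraries. Points are libraries and lines are the means of the 2 libraries of a group; Bnip3, Ndrg1, P4ha1 and Higd1a are lower in both cKO groups than in their WT group, and Adm is highest in Virma cKO, at 14.7 and 15.1 CPM.

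In the comparison of Mettl3 cKO with Mettl3 WT, Ndrg1, Bnip3, Egln3 and P4ha1 fell by 1.58-fold to 2.97-fold, Higd1a and Egln1 fell by 1.15-fold and 1.10-fold, and Vegfa rose by 1.08-fold. In all, 6 of 10 members fell, 1 rose and 3 did not pass the test. Of the 14229 genes tested, 55.1% passed in this comparison, 28.0% lower and 27.1% higher. The median log2 fold change of the members was −0.22, and of all genes tested 0.01. In the comparison of Virma cKO with Virma WT, P4ha1, Ndrg1, Bnip3 and Higd1a fell by 1.38-fold to 2.24-fold, while Adm, Ddit4 and Vegfa rose by 1.15-fold to 1.66-fold. That is 4 of 10 lower and 3 higher, where 52.3% of all genes passed, 26.1% lower and 26.2% higher. The median was −0.12 for the members and 0.02 for all genes. In both comparisons 7 of 10 members were called, not far above the share of all genes.

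Bnip3, Ndrg1, P4ha1 and Higd1a were lower in both comparisons, 4 of 10 against 14.2% of all genes, and Vegfa was higher in both, 1 of 10 against 13.7%. No member passed in opposite directions, as 6.76% of all genes did. Libraries of cKO and WT did not overlap for 9 of 10 members in each comparison, where the share over all genes was 75.0% for Mettl3 and 84.6% for Virma. With DESeq2 in place of edgeR only 4 members were called in the Mettl3 comparison, all lower, and 5683 of the 14229 genes; Vegfa, Egln1 and Higd1a did not pass.

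**Figure D2:**
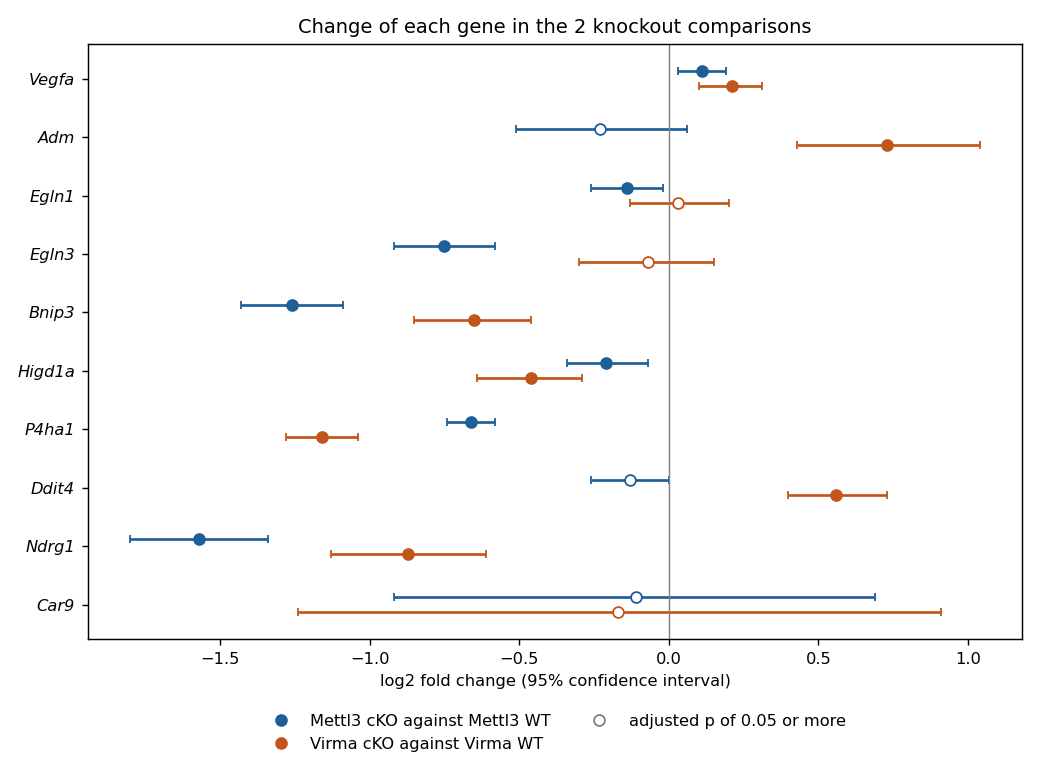
Log2 fold change (x axis) of each gene in the comparison of Mettl3 cKO with Mettl3 WT (blue) and of Virma cKO with Virma WT (orange). Points are edgeR estimates, bars are 95% confidence intervals and open points did not pass the test at an adjusted p of 0.05; Ndrg1 and Bnip3 lie farthest left in the Mettl3 comparison, at −1.57 and −1.26, and P4ha1 in the Virma comparison, at −1.16.

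Vegfa, the secreted growth factor that drives vessel formation, changed little. It stood at 138 and 139.9 CPM in Mettl3 WT, 149.5 and 149.9 in its cKO, 106 and 108 in the Virma WT pair, and 123 and 125 in Virma cKO. Both cKO pairs lay above their WT pair, and no 2 groups overlapped. The log2 fold change was 0.11 ± 0.04 (SE) for Mettl3 (edgeR, Benjamini-Hochberg adjusted p = 0.0227) and 0.21 ± 0.05 for Virma (adjusted p = 0.00118). The Mettl3 call was lost without either Mettl3 cKO library or without replicate 1 of Mettl3 WT (adjusted p from 0.0631 to 0.0906), and the value was −0.03 (adjusted p = 0.561) in a fit that took out the trend with exon length and GC content. The difference of the Virma and Mettl3 effects was 0.10, with a 95% interval from −0.03 to 0.23.

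Adm encodes adrenomedullin, a peptide that widens vessels and supports their growth. Its level was 8.57 and 9.28 CPM in Mettl3 WT, 7.88 and 7.38 in its cKO, 8.77 and 9.12 in the Virma WT pair, and 14.7 and 15.1 in Virma cKO. The Virma cKO libraries stood apart above the other 6, and the WT pairs overlapped. Adm rose by 0.73 ± 0.15 on the log2 scale in Virma cKO (edgeR, adjusted p = 0.000207) and was at −0.23 ± 0.14 in Mettl3 cKO (adjusted p = 0.169). With the length and GC trend removed the Mettl3 value passed at −0.44 (edgeR, adjusted p = 0.00959). The difference of the effects, 0.96 ± 0.20, was the largest among the members.

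The other ligands of the VEGF family and the receptors of Vegfa and Adm were a list of 12, of which 11 were tested (values in brackets here and below are log2 fold changes ± SE). In Mettl3 cKO 7 rose and 0 fell, among them the coreceptor Nrp2 (1.14 ± 0.13) and the ligand Vegfd (0.95 ± 0.36). Against Virma WT as control 4 were higher in Mettl3 cKO and 1 lower. The 2 rises named depend on the control. Nrp2 had 17.4 and 15.1 CPM in Mettl3 cKO and 16.2 and 14.3 in Virma WT, which overlap. Vegfd, at low counts, had 1.56 and 1.94 CPM in Mettl3 cKO and 1.67 and 1.61 in Virma WT, which overlap too. The shares over all genes tested were 27.1% higher and 28.0% lower in Mettl3 cKO, and 26.2% and 26.1% in Virma cKO. In Virma cKO 3 of the list rose and 3 fell. The ligand Vegfc rose by 1.06 ± 0.18 and the coreceptor Nrp1 by 1.06 ± 0.21, and the adrenomedullin receptor partner Ramp2 (−1.53 ± 0.17) and the main Vegfa receptor Kdr (−1.10 ± 0.21) fell. In Mettl3 cKO, Kdr rose by 0.94 ± 0.14, a value picked out after it was seen. Adm2, a relative of Adm, rose in both comparisons, from 1.38 and 0.479 to 3.73 and 4.42 CPM in the Mettl3 line (2.12 ± 0.35) and from 0.477 and 1.01 to 3.02 and 3.16 CPM in the Virma line (2.04 ± 0.45).

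Egln1 and Egln3 encode the oxygen-dependent prolyl hydroxylases PHD2 and PHD3, which restrain HIF and are themselves HIF targets. Egln3 stood at 34.3 and 37.0 CPM in Mettl3 WT, 22.0 and 20.5 in its cKO, 22.0 and 21.9 in the Virma WT pair, and 20.4 and 21.4 in Virma cKO. Mettl3 WT alone was high, and the other 3 groups lay between 20.4 and 22.0 CPM. The fall in Mettl3 cKO was 0.75 ± 0.08 on the log2 scale (edgeR, adjusted p = 4.88e-08). In Virma cKO the value was −0.07 ± 0.11 (adjusted p = 0.599), with a 95% interval from −0.30 to 0.15, and 0.05 when libraries were scaled by total count. The effects differed by 0.67 ± 0.14 (edgeR, adjusted p = 0.000371).

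Egln1, the main hydroxylase under normal oxygen, was at 81.6 and 85.0 CPM in Mettl3 WT, 70.2 and 81.1 in its cKO, 59.1 and 62.5 in the Virma WT pair, and 62.0 and 62.8 in Virma cKO. Both groups of the Mettl3 line were above both of the Virma line, and the Virma groups overlapped. The Mettl3 cKO libraries differed from each other by more than the sampling noise of their counts (1168 and 1340 counts, exact binomial test, two-sided, p = 0.000439, adjusted p = 0.0175 over 40 such tests). The log2 fold change in Mettl3 cKO was −0.14 ± 0.06 (edgeR, adjusted p = 0.0495), a call lost in 6 of 8 fits that left out a library, where the value ran from −0.24 to −0.04. In Virma cKO it was 0.03 ± 0.08 (adjusted p = 0.744). The third hydroxylase gene, Egln2, which is not a classical hypoxia target, rose in Mettl3 cKO by 0.37 ± 0.07 and stood at −0.07 ± 0.08 in Virma cKO.

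Bnip3 encodes an outer mitochondrial membrane protein that recruits the autophagy machinery to mitochondria. Its level was 47.3 and 44.4 CPM in Mettl3 WT, 19.9 and 18.4 in its cKO, 40.6 and 44.2 in the Virma WT pair, and 28.1 and 25.9 in Virma cKO. The WT groups were close, and each cKO pair lay below both. Bnip3 fell by 1.26 ± 0.08 in Mettl3 cKO (edgeR, adjusted p = 4.42e-12) and by 0.65 ± 0.10 in Virma cKO (adjusted p = 3.42e-06), and the effects differed by 0.60 ± 0.13 (adjusted p = 0.000485). Bnip3l, its closest relative with the same role in mitophagy, fell too; it was named after its values were seen. Its log2 fold change was −0.41 ± 0.05 in Mettl3 cKO and −0.18 ± 0.06 in Virma cKO (edgeR, adjusted p = 4.09e-07 and 0.0171).

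Higd1a, a small inner mitochondrial membrane protein that associates with the respiratory chain, moved less. It stood at 46.6 and 49.2 CPM in Mettl3 WT, 42.3 and 40.7 in its cKO, 45.8 and 44.8 in the Virma WT pair, and 33.7 and 32.1 in Virma cKO. The 4 groups did not overlap, with Mettl3 WT highest and Virma cKO lowest. It fell by 0.21 ± 0.07 in Mettl3 cKO (edgeR, adjusted p = 0.00997) and by 0.46 ± 0.08 in Virma cKO (adjusted p = 6.17e-05). Without replicate 2 of Mettl3 cKO the first call was lost (−0.18, adjusted p = 0.102). Annotated transcripts of 5 other loci match Bnip3 over at least 150 bases at 93.4 to 98.9% identity, and 2 match Higd1a at 91.5 to 99.3%. The sources do not say how reads with several positions were counted, so both levels are uncertain.

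P4ha1 encodes the catalytic subunit of prolyl 4-hydroxylase, which modifies collagen chains so that they form stable triple helices. It had 193 and 186 CPM in Mettl3 WT, 122 and 118 in its cKO, 134 and 136 in the Virma WT pair, and 60.3 and 60.9 in Virma cKO. The 4 groups were all separate, and Virma cKO was 3.13 times below Mettl3 WT. P4ha1 fell by 0.66 ± 0.04 in Mettl3 cKO (edgeR, adjusted p = 1.64e-12) and by 1.16 ± 0.06 in Virma cKO (adjusted p = 3.32e-14). It was the only member that fell further in the Virma line by the edgeR test of the difference with the Virma cKO pair as 1 sample (−0.50 ± 0.07, adjusted p = 3.60e-06). Its relative P4ha2 fell by 1.77 ± 0.06 in Virma cKO, from 164 and 163 to 47.2 and 48.4 CPM, and by 0.65 ± 0.04 in Mettl3 cKO. The shared beta subunit P4hb, named after its values were seen, fell by 0.66 ± 0.03 in Virma cKO and by 0.21 ± 0.02 in Mettl3 cKO. The P4hb fall in Mettl3 cKO depends on the control. At 1289 and 1307 CPM it lay below Mettl3 WT (1498 and 1501) and above Virma WT (1247 and 1258). P4ha2 in Mettl3 cKO (135 and 138 CPM) lay below both controls (211 and 216, and 164 and 163). Markers of other cell states moved with these values: 14 of 14 primitive endoderm markers fell in Virma cKO, median −2.39, and 12 of 14 in Mettl3 cKO, median −0.55, while fibroblast markers, which include interstitial collagens, rose in 12 of 12 and 11 of 12. Over all genes tested 28.0% were lower and 27.1% higher in Mettl3 cKO, and 26.1% and 26.2% in Virma cKO. Against Virma WT as control 9 of the 14 primitive endoderm markers were lower in Mettl3 cKO and 2 higher, median −0.30. Of the 12 fibroblast markers 8 were lower against that control and 1 higher. The part of these markers in the fall of P4ha1 was not tested.

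Ddit4 encodes an inhibitor of the growth kinase mTORC1 that hypoxia, energy stress and the stress factor ATF4 all induce. It stood at 54.7 and 50.5 CPM in Mettl3 WT, 46.6 and 49.5 in its cKO, 38.1 and 39.8 in the Virma WT pair, and 56.1 and 59.2 in Virma cKO. Virma WT was lowest and Virma cKO highest, with the Mettl3 groups between. Ddit4 rose by 0.56 ± 0.08 in Virma cKO (edgeR, adjusted p = 2.00e-06) and was at −0.13 ± 0.06 in Mettl3 cKO (adjusted p = 0.0875). The effects differed by 0.69 ± 0.10 (adjusted p = 7.06e-06). The Mettl3 value passed as lower without replicate 2 of Mettl3 WT (−0.19, edgeR, adjusted p = 0.0129) and after removal of the length and GC trend (−0.48, adjusted p = 1.06e-06).

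Its relative Ddit4l rose in both lines, by 1.39 ± 0.10 in Mettl3 cKO and by 1.91 ± 0.10 in Virma cKO, where it went from 16.0 and 15.2 to 60.5 and 56.8 CPM. Of 12 ATF4 targets 9 rose and 1 fell in Mettl3 cKO, and 9 rose and 2 fell in Virma cKO. The largest rises were of Chac1, which degrades glutathione, in Mettl3 cKO (2.58 ± 0.24) and of the cystine transporter Slc7a11 in Virma cKO (2.96 ± 0.44, from 0.537 and 0.477 to 4.28 and 3.77 CPM). Next were the pseudokinase Trib3 in Mettl3 cKO (1.64 ± 0.08) and Chac1 in Virma cKO (2.47 ± 0.26). Asparagine synthetase, Asns, fell in both (−0.18 ± 0.03 and −0.36 ± 0.04), and the serine synthesis enzyme Phgdh fell in Virma cKO (−0.13 ± 0.05). Among all genes tested 27.1% were higher and 28.0% lower in Mettl3 cKO, and 26.2% and 26.1% in Virma cKO. The medians of the ATF4 targets were 0.47 and 0.78. With the length and GC trend removed the counts were 8 and 3 in Mettl3 cKO and 9 and 1 in Virma cKO. With Virma WT as control 9 were higher in Mettl3 cKO and 2 lower. Chac1 and Trib3 in Mettl3 cKO lay above both controls. Asns, at 644 and 641 CPM in Mettl3 cKO, lay below Mettl3 WT (728 and 731) and above Virma WT (336 and 344). Whether ATF4 targets and Ddit4 are linked was not tested.

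Ndrg1, a cytoplasmic protein tied to differentiation, growth arrest and the stress response, had the largest fall of the members in the Mettl3 line. It stood at 23.9 and 25.3 CPM in Mettl3 WT, 7.94 and 8.59 in its cKO, 23.8 and 27.9 in the Virma WT pair, and 14.7 and 13.6 in Virma cKO. The WT pairs overlapped, and both cKO pairs were below them. The fall was 1.57 ± 0.11 in Mettl3 cKO (edgeR, adjusted p = 3.32e-11) and 0.87 ± 0.13 in Virma cKO (adjusted p = 3.33e-06), and the effects differed by 0.70 ± 0.17 (adjusted p = 0.00240). Its relatives Ndrg4 and Ndrg3 fell in both lines, Ndrg4 by 1.01 ± 0.16 in Mettl3 cKO and 0.93 ± 0.22 in Virma cKO, and Ndrg3, named after its values were seen, by 0.66 ± 0.07 and 0.78 ± 0.10.

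Car9, the membrane carbonic anhydrase that helps hypoxic cells export acid, was close to the limit of the data. Its counts were 36 and 14 for Mettl3 WT, 24 and 22 for Mettl3 cKO, 20 and 21 for Virma WT, and 18 and 17 for Virma cKO, or 0.838 to 2.16 CPM. The Mettl3 WT libraries were both the highest and the lowest, and differed by more than sampling noise (exact binomial test, two-sided, p = 0.00176, adjusted p = 0.0351 over the 40 tests). The log2 fold change was −0.11 in Mettl3 cKO (95% interval −0.92 to 0.69) and −0.17 in Virma cKO (−1.24 to 0.91). No change was detectable at this depth. It turned to 0.72 in Mettl3 cKO without replicate 1 of Mettl3 WT (edgeR, adjusted p = 0.131). Without replicate 2 of Mettl3 WT, Virma WT was lower than Mettl3 WT (−0.81, edgeR, adjusted p = 0.0307). Its relatives Car12, also a hypoxia target, and Car4, a marker of visceral endoderm, were lower in Virma cKO by log2 fold changes of −1.63 ± 0.29 and −3.34 ± 0.12. Annotated transcripts lie on the opposite strand of Car9, Ndrg1, Bnip3 and Higd1a, and the sources do not say whether counting used strand.

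The lines differed in their effect on 6 of 10 members, where 39.1% of all genes passed the test of the difference, 17.9% with the Virma effect higher and 21.2% lower. The Virma effect was higher for Bnip3, Egln3, Ndrg1, Ddit4 and Adm and lower for P4ha1. For Bnip3, Egln3 and Ndrg1 this was a smaller fall, or none detected, in Virma cKO, and for Ddit4 and Adm a rise there beside values just under 0 in Mettl3 cKO. Higd1a missed the threshold in this test (−0.26 ± 0.11, adjusted p = 0.0607) and passed with all 8 libraries counted separately (−0.26, edgeR, adjusted p = 0.0184).

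The control libraries of the lines were not alike. In Virma WT 5 of 10 members were lower than in Mettl3 WT and 0 were higher, where 47.6% of all genes differed, 22.2% lower and 25.4% higher. The lower members were Egln3 (−0.70 ± 0.08), P4ha1 (−0.49 ± 0.04), Egln1 (−0.45 ± 0.06), Ddit4 (−0.43 ± 0.07) and Vegfa (−0.37 ± 0.04). Bnip3 (−0.11 ± 0.07), Higd1a (−0.08 ± 0.06), Ndrg1 (0.07 ± 0.09) and Adm (0.00 ± 0.13) did not pass. Libraries of the WT groups did not overlap for 7 of 10 members, against 71.8% of all genes. Mettl3 WT libraries also had fewer genes with a count, 15415 and 15452, than the other 6, 16476 to 17086.

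Mettl3 cKO was therefore also set against Virma WT, which shares the cKO libraries with the first comparison. Virma WT belongs to the other line, so line and knockout cannot be told apart in this second comparison. There 3 members were higher and 3 lower, where 58.5% of all genes passed, 29.3% higher and 29.2% lower. Ndrg1 (−1.65 ± 0.11) and Bnip3 (−1.15 ± 0.08) were lower by about as much as against Mettl3 WT. P4ha1 was lower too, at −0.17 ± 0.04 beside −0.66 against Mettl3 WT, and Egln3 was at −0.05 ± 0.09 (edgeR, adjusted p = 0.670). Egln1 (0.31 ± 0.06) and Ddit4 (0.30 ± 0.07) were higher against this control, opposite in sign to their values against Mettl3 WT. Vegfa was higher by 0.48 ± 0.04, and Higd1a was not called (−0.13 ± 0.07, edgeR, adjusted p = 0.104). Fibroblast markers turned as well, with 8 of 12 lower and 1 higher against Virma WT. Virma cKO was not tested against Mettl3 WT. By CPM, Vegfa in Virma cKO (123 and 125) lay below Mettl3 WT (138 and 139.9), opposite to its rise against Virma WT. Egln3 (20.4 and 21.4) and Egln1 (62.0 and 62.8) also lay below Mettl3 WT (34.3 and 37.0, and 81.6 and 85.0). Ddit4 (56.1 and 59.2) lay just above Mettl3 WT (54.7 and 50.5). Adm stayed above it, and Bnip3, Ndrg1, P4ha1 and Higd1a stayed below it.

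**Figure D3:**
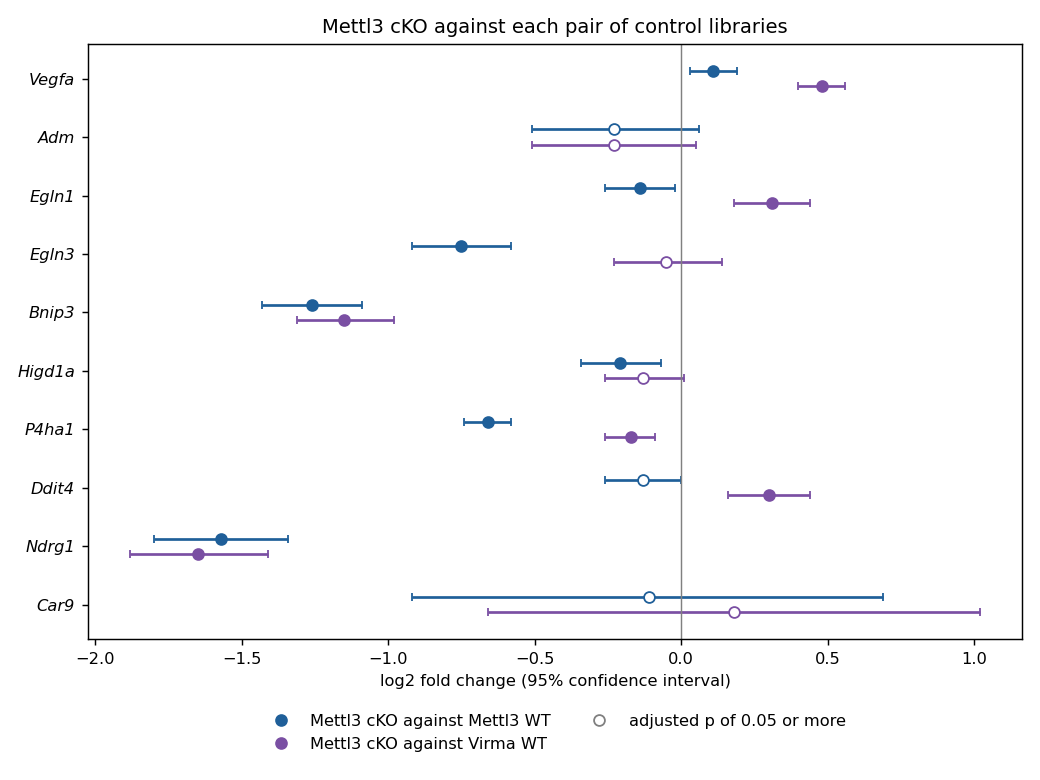
Log2 fold change (x axis) of each gene in Mettl3 cKO against Mettl3 WT (blue) and against Virma WT (purple). Bars are 95% confidence intervals and open points did not pass the test; Ndrg1 and Bnip3 keep their place, Egln3 moves from −0.75 to −0.05 and Egln1 from −0.14 to 0.31.

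Other genes of the pathway were read from lists chosen with results of these data known. Their counts stand beside shares over all genes tested of 28.0% lower and 27.1% higher in Mettl3 cKO. In Virma cKO these shares were 26.1% and 26.2%. Of 20 other hypoxia targets outside glycolysis 14 fell and 3 rose in Mettl3 cKO, median −0.42. The largest falls were of Ankrd37 (−1.30 ± 0.15), an ankyrin-repeat protein, and Car12 (−1.03 ± 0.20). The rises were led by Stc2 (1.10 ± 0.18), a secreted glycoprotein that is also a stress-response gene, and the collagen cross-linker Lox (0.66 ± 0.14). In Virma cKO 10 fell and 4 rose, median −0.19, with P4ha2 and Car12 lowest and Lox (1.40 ± 0.11) and Stc2 (0.93 ± 0.17) highest. Against Virma WT as control 9 of the 20 were lower in Mettl3 cKO and 3 higher, median −0.27. Of the genes named, Ankrd37 had 5.23 and 5.69 CPM in Mettl3 cKO and 4.95 and 5.72 in Virma WT, which overlap, and Virma WT was itself below Mettl3 WT (−1.33 ± 0.15). Stc2 had 6.79 and 7.08 CPM in Mettl3 cKO, 3.36 and 3.11 in Mettl3 WT and 6.50 and 6.14 in Virma WT. Lox, at 8.12 and 8.04 CPM in Mettl3 cKO, was above Mettl3 WT (4.73 and 5.45) and below Virma WT (17.4 and 16.7). Car12, at 2.77 and 3.21 CPM, was below both controls (6.71 and 5.45, and 5.55 and 5.37). This list shares Bnip3l, P4ha2 and Car12 with the relatives of the members.

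The oxygen-sensing machinery changed in both directions, with 8 of 16 genes lower and 3 higher in Mettl3 cKO and 5 lower and 4 higher in Virma cKO. Of all genes tested 28.0% were lower and 27.1% higher in the Mettl3 comparison, and 26.1% and 26.2% in the Virma comparison. The Virma counts of the list were near those shares. Epas1, the HIF-2 alpha subunit, fell in both, from 55.0 and 55.3 to 31.2 and 32.3 CPM in the Mettl3 line (−0.80 ± 0.07) and from 39.3 and 36.5 to 18.7 and 17.0 CPM in the Virma line (−1.09 ± 0.10). The ubiquitin ligase Siah2, which targets hydroxylases of the Egln family, rose in both (0.48 ± 0.10 and 0.71 ± 0.12). The coactivator Crebbp rose in Virma cKO (0.46 ± 0.06). The alpha subunit Hif3a fell in Mettl3 cKO (−0.66 ± 0.17) and Rbx1, the ring subunit of the Vhl ligase, in Virma cKO (−0.30 ± 0.07). Hif1a, Arnt and Vhl, the core of the pathway, were named after their values were seen. Hif1a fell by 0.39 ± 0.05 in Mettl3 cKO and stood at −0.08 ± 0.05 in Virma cKO, Arnt fell by 0.65 ± 0.05 and 0.24 ± 0.06, and Vhl fell by 0.24 ± 0.09 and stood at 0.12 ± 0.12. With Virma WT as control 9 of the 16 were lower in Mettl3 cKO and 3 higher. Vhl, at 19.1 and 19.2 CPM in Mettl3 cKO, lay below Mettl3 WT (23.6 and 21.6) and above Virma WT (15.9 and 17.1). By CPM, Epas1, Hif3a, Hif1a and Arnt in Mettl3 cKO lay below both controls and Siah2 above both. HIF activity itself is set largely by protein stability, which was not measured.

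Among 10 hypoxia targets of glycolysis 7 fell and 1 rose in Mettl3 cKO, and 7 fell and 2 rose in Virma cKO, with medians of −0.34 and −0.42. The shares over all genes tested were 28.0% lower and 27.1% higher in Mettl3 cKO, and 26.1% and 26.2% in Virma cKO. Ldha, which makes lactate, fell by 1.42 ± 0.04 in Virma cKO, and Pgk1 fell by 0.53 ± 0.03 and 0.91 ± 0.04. Pdk1, which limits the entry of pyruvate into mitochondria, rose in both lines, by 0.17 ± 0.06 and 0.51 ± 0.06. Pfkfb3, which makes an activator of glycolysis, fell in Mettl3 cKO by 0.58 ± 0.10, the largest fall of the list there, and rose in Virma cKO by 0.34 ± 0.11; its effects differed by 0.92 ± 0.15 (edgeR, adjusted p = 3.27e-05).

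**Figure D4:**
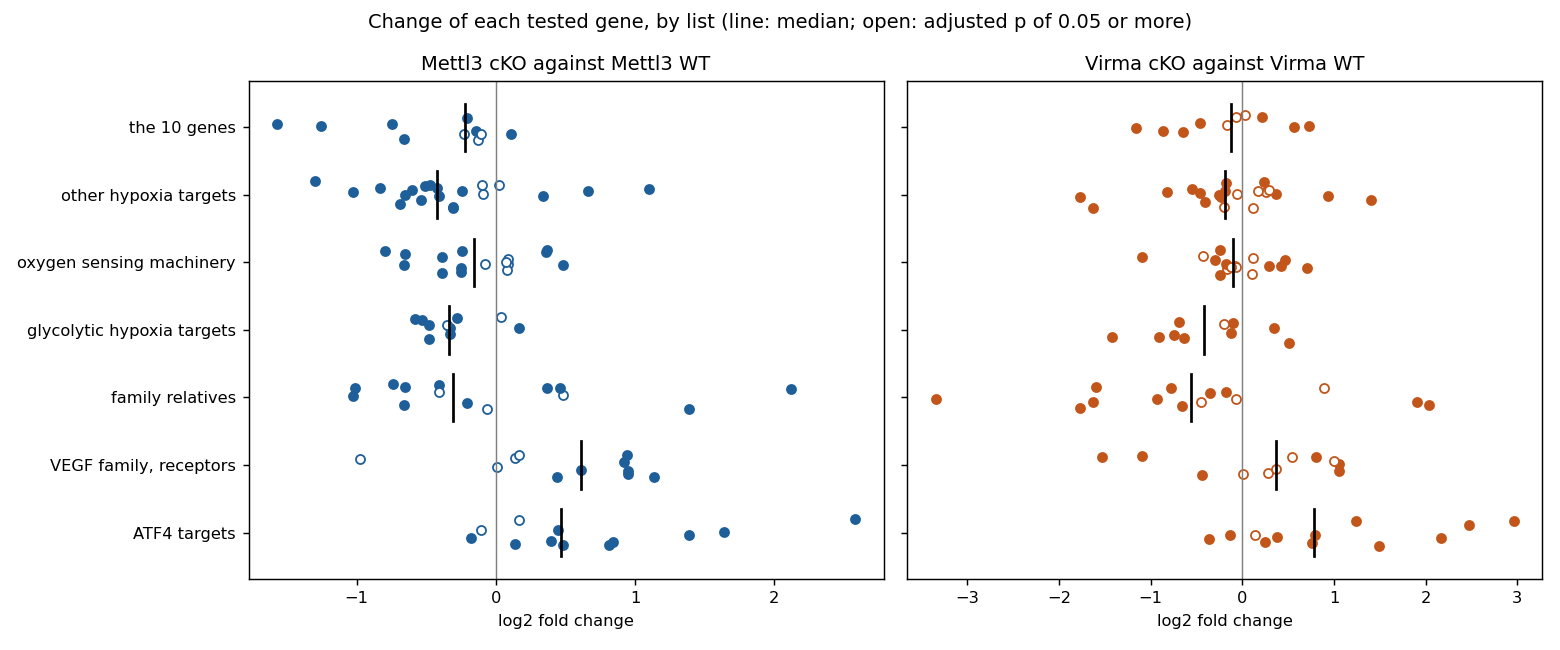
Log2 fold change (x axis) of each tested gene of 7 lists (rows) in the Mettl3 comparison (left) and the Virma comparison (right), on separate scales. Points are genes, open where the test was not passed, and black lines are medians; the median of the other hypoxia targets is −0.42 on the left and −0.19 on the right, and that of ATF4 targets 0.47 and 0.78.

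The genes whose log2 CPM followed a member most closely over the 8 libraries were looked up for Vegfa and for Ndrg1, the member with the largest fold change. This is a description of libraries that fall into 4 groups and share their depth. Closest to Vegfa, among 10869 genes, were Slc39a4 (Pearson r = 0.997), Mmp15 (0.996) and Ano8 (0.990). Slc39a4, a zinc transporter, had means of 108 and 129.7 CPM in Mettl3 WT and its cKO, and of 61.9 and 83.3 CPM in Virma WT and its cKO. Closest to Ndrg1 were Kdm4c (0.996), Ccdc66 (0.989) and Huwe1 (0.988). Kdm4c, a histone demethylase, had means of 71.6, 45.6, 72.1 and 55.5 CPM in the same succession, the same order of groups as Ndrg1.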

How the data were processed

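Total RNA was sequenced in 8 libraries, and the authors deposited raw counts per gene symbol; the submitters' processing notes name FastQC 0.12.1, Trim Galore, STAR 2.7.11b, Subread, DESeq2 and the build mm39, without their roles. The members, lists and tests were chosen with earlier results of these data known. Genes were tested with edgeR 4.0.16 (quasi-likelihood, TMM factors, robust dispersion, filterByExpr over the 4 groups, R 4.3.3), Benjamini-Hochberg adjustment over 14229 genes and a threshold of 0.05. The Virma cKO pair entered as its rounded mean, so 7 samples left 3 residual degrees of freedom, and its spread is taken to be that of the rest. Normalised CPM used the TMM factors of 8 libraries. Exon lengths and copies (blastn 2.17.0, identity of at least 90%) were read from GENCODE M21 (GRCm38, not the authors' build), and promoters from RefSeq on GRCm38.p6; 21144 of 21812 symbols matched a length directly and 433 through older names. The naming rule takes all members, the 2 largest called rises and falls per list and knockout comparison, and the 3 genes most like Vegfa and Ndrg1. The fits were tested on simulated counts. Of 50 planted changes of 1.3-fold, the smallest tried, 68% were recovered in the Mettl3 comparison and 62% in the Virma comparison. False calls were 5.98% and 5.85% in the same order. Recovery of smaller changes was not tested. Alternatives were DESeq2 1.42.0, its size factors, total-count scaling, 2 other filters, an adjusted p of 0.01, 8 separate libraries, each line alone, a replicate block, removal of a length and GC trend, Virma WT as control for Mettl3 cKO, and leaving out each library. Counts of other lists under the last control and the trend removal were added after the data were seen.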

Additional observations from a re-analysis of the deposited data

Results flagged for a closer look

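In 6 members the Virma effect (Virma cKO against Virma WT) and the Mettl3 effect (Mettl3 cKO against Mettl3 WT) differed by the edgeR test of their difference. The Virma effect minus the Mettl3 effect, on the log2 scale, was 0.60 for Bnip3, 0.67 for Egln3, 0.70 for Ndrg1, 0.69 for Ddit4, 0.96 for Adm and −0.50 for P4ha1. Beside these, Virma WT was lower than Mettl3 WT for Egln3, Ddit4 and P4ha1 by log2 fold changes of −0.70, −0.43 and −0.49, and not called for Bnip3, Ndrg1 and Adm. The part of the control libraries in these differences was not tested. Groups of 2 libraries are too small for a check of single outlying libraries.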

How the results depend on the processing

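With DESeq2 the number of members called in the Mettl3 comparison went from 7 to 4, beside 7835 and 5683 of all genes. All genes called were 3593 for the difference of the effects and 4493 for WT against WT, from 5569 and 6773. Other counts stayed within 1.5 times. Scaling by total count moved the median of all genes in the Virma comparison from 0.02 to 0.15 and the split of calls from 3721 higher and 3718 lower to 4967 and 2624. For the difference of effects the split went from 2552 and 3017 to 3437 and 2267, and members called from 6 to 8. Signs turned as follows: with total-count scaling Egln3 in the Virma comparison (0.05), Car9 in the difference (0.04) and Adm between WT groups (−0.01); with DESeq2, its size factors and the CPM filter Adm between WT groups (0.00). With the length and GC trend removed Vegfa in the Mettl3 comparison (−0.03) and Car9 in the difference (0.19) turned. Against Virma WT, Egln1 (0.31), Ddit4 (0.30) and Car9 (0.18) turned in the Mettl3 comparison. The cause was not tested. Leaving out single libraries gave 5 to 7 members called for Mettl3 (all genes 6132 to 8291), 7 for Virma (5970 to 8699), 6 to 7 for the difference (4349 to 6680) and 5 to 6 between WT groups (4857 to 7405). Values ran from −0.63 to 0.72 for Car9 in the Mettl3 comparison, −0.89 to 0.46 in the difference and −0.81 to 0.54 between WT groups. They ran from −0.01 to 0.07 for Egln1 in the Virma comparison, and between WT groups from −0.04 to 0.19 for Ndrg1 and −0.05 to 0.06 for Adm. Replicate numbers pair no samples by the labels, and deviations of same-numbered libraries correlated by −0.0145 to 0.0176. The replicate block was fitted with the Virma cKO libraries as 2 samples: 7 members were called in each knockout comparison (all genes 8343 and 8960) and 8 in the difference (6862). With 8 separate libraries and no block these were 7, 7 and 7 (8283, 8914 and 6768). Depth limits Car9, with 14 to 36 counts per library.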

Other observations

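Endothelial markers, a list of 9 genes of which 8 were tested, were at 115 to 116 CPM summed in Mettl3 WT, 126 to 127 in Mettl3 cKO, 91.4 to 95.8 in Virma WT and 75.0 to 76.3 in Virma cKO. Of these sums Pecam1 alone gave 74.7 and 76.1, 69.0 and 68.0, 49.7 and 54.4, and 39.0 and 37.6 CPM in the same order. In Mettl3 cKO 4 rose and 1 fell (Pecam1, −0.14 ± 0.06), with the transcription factor Sox18 at 1.39 ± 0.15 and the vessel receptor Robo4 at 1.01 ± 0.19. With Virma WT as control 4 were higher in Mettl3 cKO and 0 lower. Sox18 lay above both controls. Robo4, at 6.31 and 6.53 CPM in Mettl3 cKO, lay above Mettl3 WT (2.88 and 3.47) and below Virma WT (6.80 and 8.82). In Virma cKO 2 rose, Tie1 (0.77 ± 0.26) and Robo4 (0.73 ± 0.18), and 4 fell, led by Erg (−2.06 ± 0.68) and Cdh5 (−1.76 ± 0.23). The size of the Erg fall is uncertain, with a 95% interval from −3.47 to −0.65. It rests on low counts, which dropped from 22 and 21 to 5 per library. Cdh5, the cadherin of endothelial junctions, went from 9.43 and 8.59 to 2.72 and 2.55 CPM. With the length and GC trend removed 2 rose and 0 fell in Mettl3 cKO. In the main fit the shares over all genes tested were 27.1% higher and 28.0% lower in Mettl3 cKO. They were 26.2% and 26.1% in Virma cKO.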
